A study of Mus musculus with 8 samples.

Results

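Basophils and mast cells are granulocytes that carry the high-affinity receptor for IgE, and both are known for releasing histamine and proteases from their granules when that receptor is cross-linked. Both arise in mouse bone marrow from progenitors of the myeloid branch, and the transcription factor Gata2 is needed for their development. 8 genes of these cells were followed in cultured bone marrow colonies of the B lineage, a lineage to which basophils and mast cells do not belong. The 8 were taken from a fixed list of Ensembl gene IDs, with the symbols given with that list, and all 8 were found among the 27835 genes measured. They comprised the granule proteases Mcpt8 (ENSMUSG00000022157_at), Cpa3 (ENSMUSG00000001865_at), Prss34 (ENSMUSG00000056399_at) and Cma1 (ENSMUSG00000022225_at), and the IgE receptor chains Fcer1a (ENSMUSG00000005339_at) and Ms4a2 (ENSMUSG00000024680_at). The others were the transcription factor Gata2 (ENSMUSG00000015053_at) and Hdc (ENSMUSG00000027360_at), which makes histamine from histidine.

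The study measured total RNA on 8 Affymetrix arrays, 4 from wild-type colonies and 4 from colonies labelled HMGN1 overexpression. HMGN1 is a nucleosome-binding protein whose gene lies in the 21q22 region that the study addresses. In both genotypes, bone marrow had been plated in a methylcellulose medium for B cells and colonies labelled as proB stage had been collected at 1 week. The promoter that drives the transgene, the mouse strain, the age of the animals and whether arrays came from separate mice are not given in the sources used here, so each p-value reflects only how these samples spread, and part of that may be technical.

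Each value is an RMA intensity on a linear scale, or its log2 where stated, and array medians lay between 95.8 and 100.1. In a principal component analysis of all genes, wild-type replicate 3 stood apart from its group on component 1 (29.9% of variance) and HMGN1 replicate 4 on component 2 (21.4%). Results that rest on either array are therefore given with and without it. The rows pair no other ID with a symbol, so the level of Hmgn1 itself and the markers of B cells, neutrophils and macrophages were not analysed here, and the proB label was not checked against its markers. In bulk colonies, fewer cells of a type and less RNA per cell cannot be told apart.

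The 250 bases before the transcription start are shown for 3 of the genes, chosen by their differences between genotypes. Over all 8 arrays Mcpt8 and Cpa3 had the largest differences of the 8, while Ms4a2 had nearly equal means. None of the 3 passed the test between genotypes, and a link between promoter letters and these differences was not tested. Sequences are from RefSeq (GRCm38.p6), matched by symbol, and run 5′ to 3′ on the gene's own strand. Capitals mark GATAA or its reverse complement TTATC, a form of the letters that GATA factors bind. The windows are chr14:56085198-56085447 (minus strand) for Mcpt8, chr3:20242182-20242431 (minus strand) for Cpa3 and chr19:11623720-11623969 (minus strand) for Ms4a2.
Mcpt8: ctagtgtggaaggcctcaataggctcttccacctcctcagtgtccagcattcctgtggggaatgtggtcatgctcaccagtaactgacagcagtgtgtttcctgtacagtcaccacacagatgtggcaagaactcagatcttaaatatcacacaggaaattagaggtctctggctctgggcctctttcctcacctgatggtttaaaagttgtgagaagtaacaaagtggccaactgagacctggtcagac
Cpa3: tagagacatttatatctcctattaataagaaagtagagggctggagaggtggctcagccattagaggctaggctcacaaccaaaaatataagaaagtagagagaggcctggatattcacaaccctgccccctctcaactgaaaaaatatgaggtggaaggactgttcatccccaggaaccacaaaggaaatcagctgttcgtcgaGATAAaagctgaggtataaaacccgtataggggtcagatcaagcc
Ms4a2: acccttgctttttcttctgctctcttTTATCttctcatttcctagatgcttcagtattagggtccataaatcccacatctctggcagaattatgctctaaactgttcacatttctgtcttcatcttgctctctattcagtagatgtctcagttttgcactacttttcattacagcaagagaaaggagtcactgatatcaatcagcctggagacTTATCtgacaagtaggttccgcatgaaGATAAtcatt
All 8 genes were found by symbol in the promoter table, with 9 windows between them, since Gata2 has 2 listed starts. Searched on both strands over 250 bases before and 50 after the start, GATAA was found in 5 of the 9 windows, those of Cpa3, Prss34, Cma1, Fcer1a and Ms4a2. Of all 32851 windows of the same length, 25.4% held it. The Cpa3 match began 45 bases before the start. Ms4a2 held 3 matches, beginning 224, 37 and 10 bases before the start, a number reached by 0.938% of all windows. Mcpt8, Hdc and both Gata2 windows held neither GATAA nor TTATC. Other forms of the letters that GATA factors bind were not searched, so these windows may hold them. The E-box letters CANNTG, whose matches may overlap those of GATAA, were found in 7 of the 9 windows, against 72.3% of all windows. These matches describe letters in a window and not binding.

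The 8 genes gave low to middle signals on these arrays. In each array 6 of the 8 lay below the middle of all genes: Fcer1a was between percentiles 5.23 and 7.27, Cma1 between 15.4 and 20.6, Ms4a2 between 19.3 and 21.8, Hdc between 27.6 and 32.0, Mcpt8 between 26.0 and 42.4 and Gata2 between 40.0 and 45.7. Cpa3 crossed the middle, from percentile 32.6 to 56.0, and Prss34 stayed just above it, from 51.0 to 55.6. A percentile depends on the probes as well as on the transcript, so it does not order the genes by abundance. Whether any of these signals was above background was not assessed here. Background left in a dim signal makes a fold change smaller than the change in RNA.

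**Figure D1:**
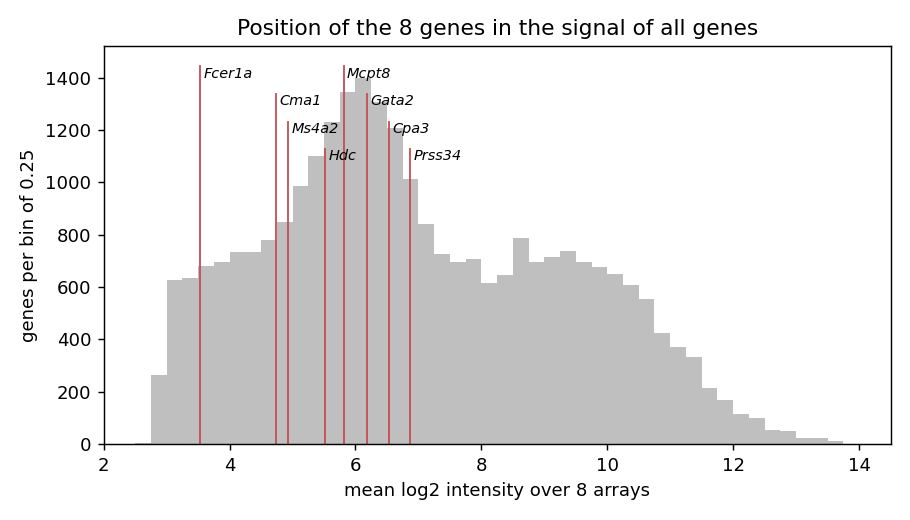
Histogram of the mean log2 intensity over 8 arrays for all 27835 genes (x axis log2 intensity, y axis genes per bin), with a red line at the mean of each of the 8 basophil and mast cell genes. The lines sit in the left and central part of the distribution, with Fcer1a farthest left and Prss34 farthest right.

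The comparison asks whether transcripts of basophils and mast cells differ when HMGN1 is overexpressed in these colonies. Mcpt8 and Cpa3 had fold changes of 1.36 and 1.34 (from the mean log2 values), and no gene of the 8 passed the test over all genes. The other 6 had fold changes between 0.886 (Cma1) and 1.08 (Prss34). By limma with Benjamini-Hochberg adjustment over 27835 genes, 0 of the 8 had an adjusted p under 0.05, in a comparison where 0.0144% of all genes did, so that count says little about these genes. At an unadjusted p under 0.05, 2 of the 8 were higher in HMGN1-overexpressing colonies, where 5.83% of all genes were, and 0 were lower, where 4.59% were. Those counts depended on single arrays. Only Mcpt8 was left on the higher side, a count of 1, when HMGN1 replicate 1, 3 or 4 was left out, and likewise for wild-type replicates 1 and 4. Prss34 joined Mcpt8 and Cpa3 without wild-type replicate 3, a count of 3. Cma1 gave a count of 1 on the lower side when HMGN1 replicate 4 or wild-type replicate 2 was left out. The shares of all genes were not computed with an array left out, so these counts have no share to be read against. The median log2 fold change of the 8 was 0.05, beside -0.0018 for all genes. It was 0.018 without wild-type replicate 2, 0.027 without HMGN1 replicate 3 and 0.074 without HMGN1 replicate 2. 5 of the 8 had a higher mean in HMGN1-overexpressing colonies, where 49.4% of all genes did. The differences of Hdc, Fcer1a and Ms4a2 lay near 0 and changed sign in some settings, so that count is not firm. Neither bound of the 95% interval reached a 2-fold change for any of the 8, as for 27487 of all genes, and 0 of the 8 had a mean lower by 2-fold or more, where 0.205% of all genes did.

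**Figure D2:**
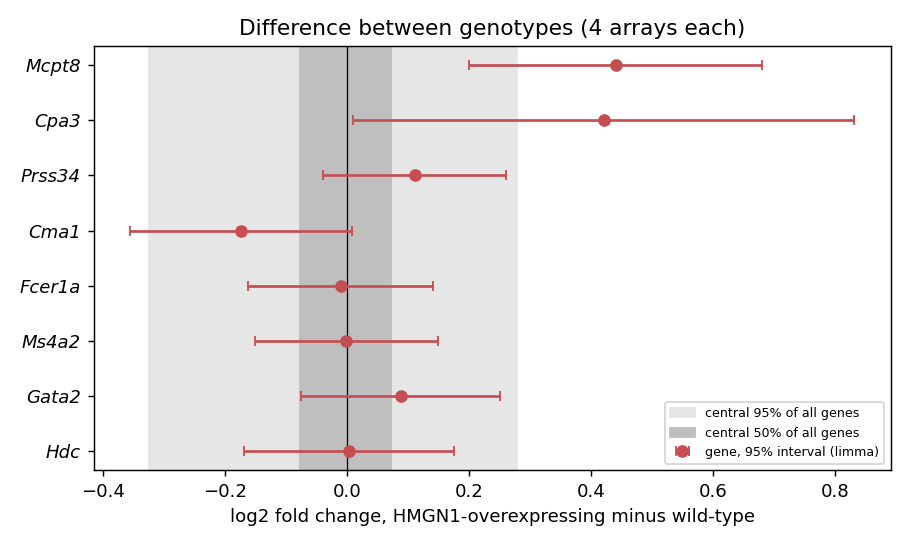
Log2 fold change of each gene (x axis, HMGN1-overexpressing minus wild-type, 4 arrays each), with points for the limma estimate and bars for its 95% interval; grey bands hold the central 50% and 95% of the estimates of all genes. The points of Mcpt8 and Cpa3 lie to the right of the wider band, and those of the other 6 genes lie inside it.

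Mcpt8 encodes mast cell protease 8, a granule serine protease that in mice marks basophils. Its intensity was 49.0, 51.6, 52.8 and 40.5 in wild-type replicates 1 to 4, and 61.3, 57.4, 71.1 and 73.2 in HMGN1 replicates 1 to 4. Every HMGN1-overexpressing array lay above every wild-type array, which held for 1 of the 8 genes in this direction and for 4.15% of all genes. In the opposite direction it held for 0 of the 8 and for 2.66% of all genes. The means were 48.5 ± 5.56 and 65.8 ± 7.62 (SD, n = 4 each), a log2 fold change of 0.44 (SE 0.11, 95% interval 0.20 to 0.68). By limma the unadjusted p was 0.00229, at position 317 of all genes, and the adjusted p was 0.200, above the threshold. Over 16 alternative settings the log2 fold change stayed between 0.30 and 0.50 and the limma adjusted p between 0.167 and 0.583. The genotypes did not overlap for Mcpt8 in any of these settings. Only subtracted array medians and quantile normalization could have changed that. The other settings keep the order of the arrays or leave arrays out of groups that already stood apart. Without wild-type replicate 3 and HMGN1 replicate 4, the arrays that stood apart, the log2 fold change was 0.43.

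Cpa3 encodes carboxypeptidase A3, a granule protease of mast cells that basophils and their progenitors also make. Its intensity was 87.7, 97.0, 90.3 and 53.1 in wild-type replicates 1 to 4, and 114, 92.3, 98.4 and 127 in HMGN1 replicates 1 to 4. The genotypes overlapped, because HMGN1 replicate 2 lay below wild-type replicate 2. Wild-type replicate 4 was far below the other 7 arrays. The means were 82.0 ± 19.7 and 108 ± 15.6 (SD, n = 4 each), a log2 fold change of 0.42 (SE 0.18, 95% interval 0.01 to 0.83, limma unadjusted p = 0.0455, adjusted p = 0.466). Over 16 alternative settings the adjusted p lay between 0.413 and 0.726. Wild-type replicate 4 decided much of the difference: without it the log2 fold change was 0.22 (limma unadjusted p = 0.0781). Without the fourth array of each genotype it was 0.14, while that of Mcpt8 was 0.30. The residual SD of Cpa3 on the log2 scale, 0.32, was at percentile 96.3 of all genes, and that of Mcpt8, 0.17, at percentile 76.8.

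Mcpt8 and Cpa3 shared their extreme arrays. Wild-type replicate 4 was the lowest of the 8 arrays for both, at -0.47 (Mcpt8) and -0.80 (Cpa3) relative to the gene's mean log2 value, and HMGN1 replicate 4 was the highest for both, at 0.38 and 0.46. HMGN1 replicate 4 is also the array that stood apart on component 2, and without it the log2 fold changes were 0.39 (Mcpt8) and 0.34 (Cpa3). Whether what sets these arrays apart also moves the 2 genes was not tested.

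**Figure D3:**
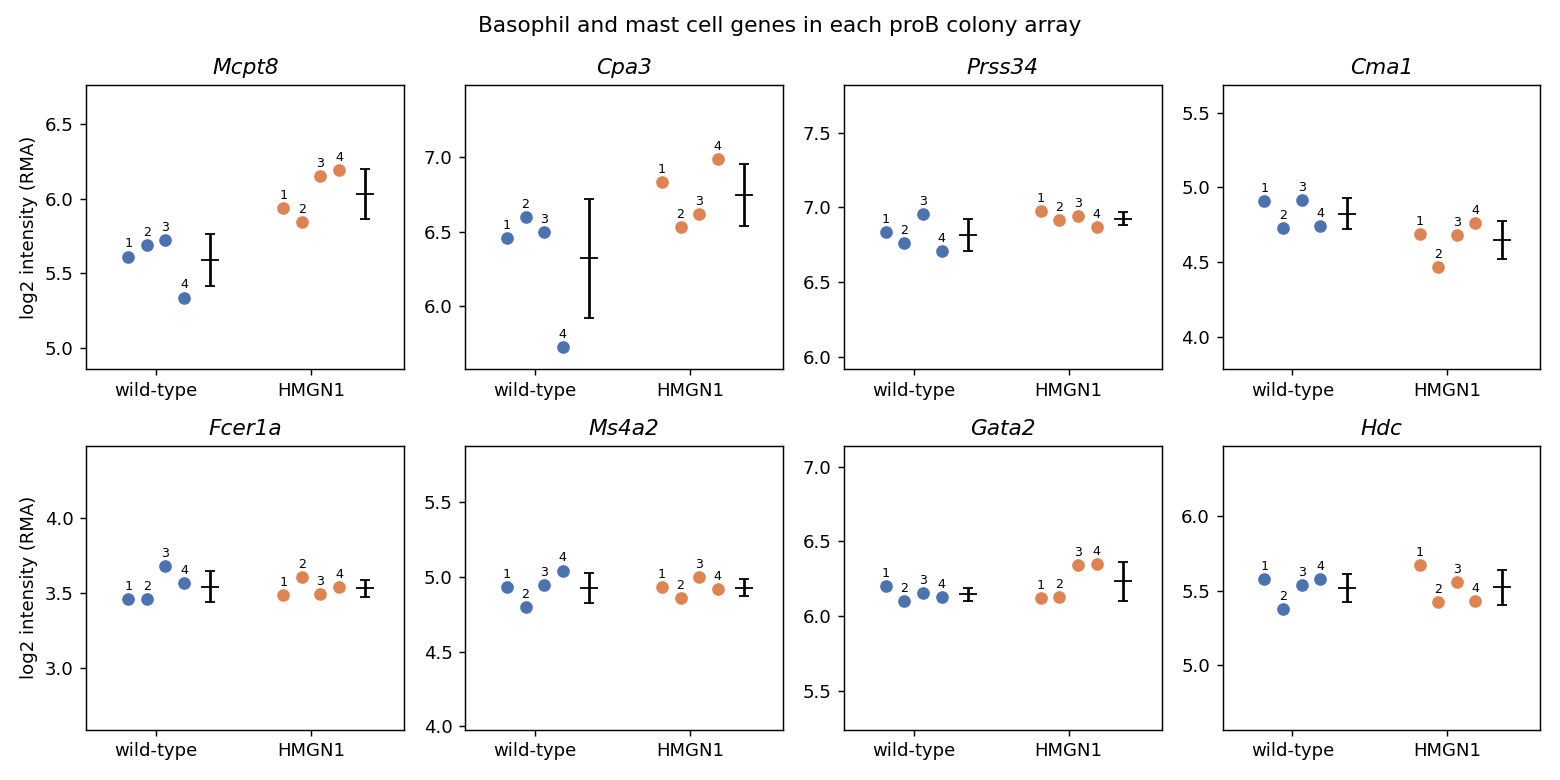
Log2 intensity of the 8 genes (y axis, each panel spanning the same range of log2 units around its own mean) in the 4 wild-type (blue) and 4 HMGN1-overexpressing arrays (orange), numbered by replicate, with black marks for the mean and SD. In the Mcpt8 panel all orange points lie above all blue points, and in the Cpa3 panel wild-type replicate 4 lies far below the rest.

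The remaining granule proteases had smaller fold changes over all 8 arrays. Prss34 encodes a serine protease that mouse basophils make. Its intensity was 114, 109, 124 and 104 in wild-type replicates 1 to 4, and 126, 121, 123 and 117 in HMGN1 replicates 1 to 4. All HMGN1-overexpressing arrays lay above wild-type replicates 1, 2 and 4, and wild-type replicate 3 lay among them. The log2 fold change was 0.11 (SE 0.067, 95% interval -0.04 to 0.26, limma unadjusted p = 0.130, adjusted p = 0.600). Without wild-type replicate 3, which stood apart in general, it was 0.16, and the limma p was 0.0268 unadjusted and 0.371 adjusted. The genotypes then did not overlap, which follows from leaving out the only wild-type array among the HMGN1-overexpressing ones.

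Cma1 encodes a chymase of connective tissue mast cells and was the granule protease with a lower mean in HMGN1-overexpressing colonies. Its intensity was 30.1, 26.5, 30.2 and 26.7 in wild-type replicates 1 to 4, and 25.8, 22.1, 25.7 and 27.1 in HMGN1 replicates 1 to 4. HMGN1 replicate 4 overlapped the wild-type range and the other 3 lay below it. The log2 fold change was -0.17 (SE 0.081, 95% interval -0.36 to 0.01, limma unadjusted p = 0.0594, adjusted p = 0.501). Without HMGN1 replicate 4 it was -0.21 (limma unadjusted p = 0.0397, adjusted p = 0.599). The genotypes then did not overlap, which follows from leaving out the only HMGN1-overexpressing array within the wild-type range. Without the fourth array of each genotype the log2 fold change was -0.24 (limma unadjusted p = 0.0379, adjusted p = 0.601). That is larger in size than the 0.14 of Cpa3 in that setting. The setting was added after the data were seen. It leaves out the lowest and highest arrays of Cpa3, so it does not rank these genes. Without HMGN1 replicate 2, the lowest array of Cma1, the log2 fold change of Cma1 was -0.11. Its direction was opposite to that of the basophil protease Mcpt8, though neither gene passed the threshold and the difference between them was not tested.

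The IgE receptor chains had nearly equal means in the genotypes. Both signals were low and were not checked against background, so equal means need not mean equal RNA. Fcer1a encodes the alpha chain, which binds IgE, and its intensity ranged from 11.0 to 12.8 in wild-type and from 11.2 to 12.2 in HMGN1-overexpressing arrays. The mean was 11.7 ± 0.853 in wild-type and 11.6 ± 0.448 in HMGN1-overexpressing colonies (SD, n = 4 each), with a 95% interval for the fold change from 0.894 to 1.10 (limma adjusted p = 0.971). Ms4a2 encodes the beta chain, which amplifies the receptor's signal. Its intensity ranged from 27.8 to 33.0 in wild-type and from 29.1 to 32.0 in HMGN1-overexpressing arrays. The mean was 30.5 ± 2.11 in wild-type and 30.4 ± 1.19 in HMGN1-overexpressing colonies, with a 95% interval for the fold change from 0.901 to 1.11 (limma adjusted p = 0.996). For both chains the HMGN1-overexpressing arrays lay within the wild-type range. The sign of both small differences turned in some settings.

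Gata2, a zinc-finger transcription factor that also acts in blood stem and progenitor cells, split the HMGN1-overexpressing arrays. Its intensity was 73.5, 68.7, 71.2 and 69.9 in wild-type replicates 1 to 4, and 69.4, 69.8, 81.3 and 81.6 in HMGN1 replicates 1 to 4. HMGN1 replicates 3 and 4 lay above all wild-type arrays, and HMGN1 replicates 1 and 2 lay within the wild-type range. The log2 fold change was 0.09 (SE 0.073, 95% interval -0.08 to 0.25, limma adjusted p = 0.708). It was 0.05 without either HMGN1 replicate 3 or HMGN1 replicate 4. The same 2 arrays were the highest of the 8 for Mcpt8.

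Hdc encodes histidine decarboxylase, the enzyme that makes histamine. Its intensity ranged from 41.6 to 47.8 in wild-type and from 42.9 to 50.9 in HMGN1-overexpressing arrays, so the genotypes overlapped. The mean was 45.9 ± 2.92 and 46.0 ± 3.77 (SD, n = 4 each), with a 95% interval for the fold change from 0.890 to 1.13 (limma adjusted p = 0.990). HMGN1 replicate 1 was its highest array, as for Prss34, while HMGN1 replicate 4 was highest for Mcpt8, Cpa3 and Gata2. Cma1, Fcer1a and Ms4a2 were highest in a wild-type array.

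**Figure D4:**
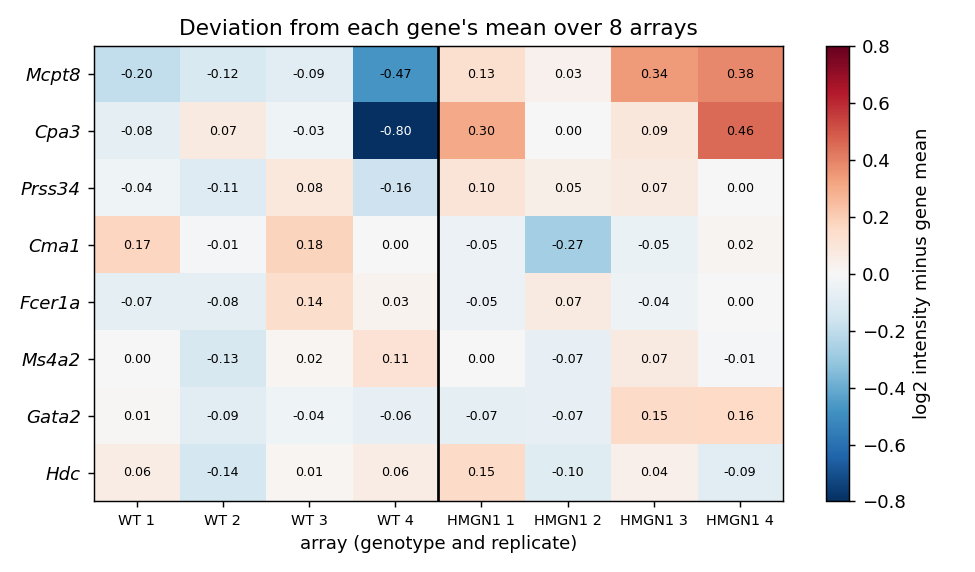
Log2 intensity of each gene (rows) in each array (columns) minus the gene's mean over 8 arrays, with red for values above and blue for values below the mean; WT stands for wild-type. The strongest colours are the low values of Mcpt8 and Cpa3 in wild-type replicate 4, at -0.47 and -0.80, and their high values in HMGN1 replicate 4, at 0.38 and 0.46.

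The mean of the centred log2 values of the 8 genes was -0.02, -0.08, 0.03 and -0.16 in wild-type replicates 1 to 4 and 0.06, -0.04, 0.08 and 0.12 in HMGN1 replicates 1 to 4, so the genotypes overlapped. Mcpt8 and Cpa3 weigh most in that mean, since they spanned 0.85 and 1.26 log2 units over the arrays and each of the other 6 spanned between 0.22 and 0.45. Only these 2 of the 8 had a residual SD above the median of all genes, 0.12.

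The genes whose pattern over the 8 arrays was most like that mean were sought among 1471 other genes with an SD of at least 0.3 on the log2 scale. ENSMUSG00000044502 had the highest Pearson correlation, at 0.942, with a log2 intensity of 7.20 ± 0.21 in wild-type and 7.68 ± 0.26 in HMGN1-overexpressing colonies (SD, n = 4 each). ENSMUSG00000094786 followed at 0.884, with 5.04 ± 0.31 and 5.50 ± 0.28. Neither passed the test between genotypes (limma adjusted p = 0.273 and 0.380). These correlations describe 8 arrays that share their normalization, and the highest of many is high by selection. The higher means of both genes in HMGN1-overexpressing colonies can follow from it too, since the mean they were matched to tended to be higher there. Their IDs are not paired with gene names here.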

How the data were processed

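Expression was measured in proB colonies on 8 Affymetrix arrays, with groups taken from the sample titles. The deposited values are an RMA intensity, per the submitters' processing notes. Their linear scale was read from the values, which run from 5.80 to 17578. The gene definition, its version and the genome build are not given in the sources used here. Because RMA gives all arrays much the same distribution, a shift in the total amount of RNA is not visible. Pairs of arrays had identical values in 0.0144% to 0.108% of genes, so no array was a copy of another, and 0 columns of other samples were present.

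Log2 of the intensity was fitted for all 27835 genes and 8 arrays in R 4.3.3 with limma 3.58.1 (lmFit, eBayes), without a filter or block. Benjamini-Hochberg adjustment ran over all genes, at a threshold of 0.05. Each fold change sets HMGN1-overexpressing against wild-type, with the SE of the fit; other errors are SD over n = 4 arrays, and the number of arrays limits the precision (median 95% interval of a gene ± 0.18 on the log2 scale). The fit was tested on simulated data.

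The 8 genes and all lists were chosen with earlier results of these data known. All 8 are named, and the genes most like them were chosen by Pearson correlation with the mean of their centred log2 values, limited to 2 IDs because the IDs are unnamed. A RefSeq table of 49997 genes held 0 Ensembl IDs, so other basophil, mast cell, eosinophil and lineage marker lists were not analysed here. Of 17 alternatives, 15 were planned and 2 were added after the data were seen: without both arrays that stood apart, and without the fourth array of each genotype. Counts of genes higher in HMGN1-overexpressing colonies, and counts at an unadjusted p, were added likewise.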

Additional observations from a re-analysis of the deposited data

Results flagged for a closer look

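Of 24 groups of 4 values examined, 3 held an array far from the other 3 of its genotype by Dixon's criterion. The criterion is the 95% critical value of the gap over the range. Chance gives about 1.2 such groups if every group is an ordinary sample. Component scores were fitted to these same arrays and need not keep that rate, so 1.2 is only a rough guide. Cpa3 in wild-type replicate 4 had a log2 intensity of 5.731, with a gap of 0.832 of the range, only just past the criterion. Wild-type replicate 3 lay at 36.16 on component 1 of all genes, and HMGN1 replicate 4 at -19.82 on component 2. No explanation for these arrays was tested.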

How the results depend on the processing

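The settings tried were log2(intensity + 16), weights for arrays, a trended and robust variance, subtracted array medians, quantile normalization, the replicate block, a filter at the median signal, and leaving out single arrays. 0 of the 8 genes were called in either direction, and 0 were lower by 2-fold, in every alternative that held them; above the median signal Prss34 alone was left. Mcpt8, Cpa3, Prss34, Gata2 and Cma1 kept their direction throughout.

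Among all genes, 4 were called, and 0 with the replicate block, which changed no adjusted call among the 8 genes. Deviations of same-numbered arrays did not correlate positively (r = -0.078, -0.088, -0.237 and -0.095), so the numbers were not taken as pairs; the labels do not say whether they are. Leaving out 1 array gave 0 to 40 called genes: 40 without HMGN1 replicate 1, 9 without wild-type replicate 1, 1 without wild-type replicate 4 and 0 without any other array. Both added settings gave 0. The cause was not tested. Fewer arrays entered all fits with arrays left out, those with more calls and those with fewer. The count of the 8 genes that were higher without overlap was 1, and 0 above the median signal, where Mcpt8 was not held. It was 1 to 2 with 1 array left out, Cpa3 joining without wild-type replicate 2 or HMGN1 replicate 2 and Prss34 without wild-type replicate 3. It was 2 without both arrays that stood apart. Non-overlap is easier to reach with fewer arrays, and the share of all genes without overlap was not computed in those settings. At an unadjusted p under 0.05, the 2 higher genes became 3 with array weights, where Prss34 joined. They became 1 with the replicate block, with log2(intensity + 16) and without the fourth arrays. The count was 0 above the median signal, and 1 to 3 with 1 array left out. The 0 lower genes became 1 without the fourth arrays and 0 to 1 with 1 array left out. The shares of all genes at that p were not computed in these settings. The median log2 fold change of the 8 ran from 0.018 to 0.074 with 1 array left out.

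Differences near 0 changed sign, with no call at stake. The log2 fold change of Fcer1a, -0.01, became 0.00701 with medians subtracted, 0.00101 with quantile normalization, 0.0197 with array weights and 0.0333 without both arrays that stood apart. That of Ms4a2, -0.0011, became 0.0161, 0.00198, 0.0102 and 0.00692 in the same settings and 0.0397 without the fourth arrays. With 1 array left out, Fcer1a ran from -0.0379 to 0.0355, Ms4a2 from -0.0447 to 0.0369 and Hdc from -0.0460 to 0.0358. Signal over background was not used, so what can be detected among dim genes is unknown.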
